A study of Rattus norvegicus with 3 samples.

Results

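The genes described here are 9 genes of the complement system in the rat thymus, taken by name from the 34034 genes of the count tables: C1qa, C1qb, C1qc, C1r, C1s, C3, Masp1, Cfb and Serping1. All 9 were found. Single-cell libraries of the thymic stroma and of thymocytes were made from Lewis rats aged 8 weeks, with 1 library each. Stromal cells were released with Liberase TH and DNase I, depleted of CD45-positive (blood-derived) cells by magnetic beads and then sorted by flow cytometry, and the enzymes for the thymocyte library were collagenase D and DNase I. A 10 µm section of the thymus was also placed on a spatial chip, and its tables were not used here. No genotype other than the strain, no treatment and no number of animals is given in the sources used here.

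Complement is a set of mostly secreted proteins that tag and lyse targets and call in phagocytes. In the classical pathway C1q, built of the chains A, B and C, binds a target and activates the proteases C1r and C1s, which cleave C4 and C2. MASP-1 (Masp1) is a protease of the lectin pathway, factor B (Cfb) supplies the protease of the alternative pathway, all routes cleave C3, and C1 inhibitor (Serping1) blocks C1r, C1s and the MASPs. Most circulating complement comes from the liver, C1q is known chiefly as a macrophage product, and fibroblasts of many organs make C1r, C1s and C1 inhibitor.

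The promoters of C1qa and C1qb are shown because these genes flank C1qc on chromosome 5 and all 3 chains were high under the same label. Each line gives the 250 bases before the RefSeq start site in GRCr8, 5′ to 3′ on the minus strand, at chr5:154419934-154420183 for C1qa and chr5:154407828-154408077 for C1qb. Capitals mark letters that match a motif of the ETS, GAS or NF-kB kind.
C1qa: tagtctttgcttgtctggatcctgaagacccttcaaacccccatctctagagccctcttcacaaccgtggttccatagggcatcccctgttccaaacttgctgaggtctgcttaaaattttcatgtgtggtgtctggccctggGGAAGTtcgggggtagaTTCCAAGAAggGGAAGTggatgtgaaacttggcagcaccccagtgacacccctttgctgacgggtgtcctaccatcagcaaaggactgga
C1qb: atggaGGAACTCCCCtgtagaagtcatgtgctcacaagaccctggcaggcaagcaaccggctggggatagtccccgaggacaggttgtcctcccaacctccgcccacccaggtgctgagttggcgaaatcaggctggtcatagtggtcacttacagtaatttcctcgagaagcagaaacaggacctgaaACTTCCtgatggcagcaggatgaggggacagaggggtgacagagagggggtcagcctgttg
Positions are those of a match's first base, counted back from the start site. The ETS core GGAAGT was found in C1qa at -107 and -79 and, on the other strand as ACTTCC, in C1qb at -61. It was present in 22.6% of 33469 promoters of 300 bases searched on both strands. Between the pair in C1qa lay a match at -90 to the GAS motif TTCNNNGAA, found in 8.87% of promoters, and C1qb had a match to the NF-kB motif at -245, found in 7.51%. Sequences were given for 5 of the 9 genes. The C/EBP motif TTGCNNAA, in 10.6% of promoters, matched in C1r at -83 and in C3 at -104, and Masp1 had no match to any of these 4 motifs or to GAAANNGAA, TGANTCA or TATAAA. These matches describe letters only.

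The stromal library held 13226 annotated cells with 131624350 unique molecular identifiers (UMIs, counted RNA molecules) and a median of 9087.5 per cell. The thymocyte library held 8546 annotated cells with 64440495 UMIs and a median of 3994. Levels are UMIs of a gene per 1000000 UMIs of all cells under a label (CPM), for the 24 stromal and 21 thymocyte labels of at least 20 cells, and brackets give 95% intervals for counting error only. UMIs were not divided by gene length, so levels are compared between labels and not between genes. With 1 library per group there is no replicate and no test was possible. A lower level can reflect fewer cells with the transcript or less of it per cell, so shares of cells with a UMI are given too. In all, 28 annotated barcodes were shared by both libraries. The labels were checked against marker genes. The labels TMC1, TMC2, TMC3, TMC4 and capFb, called fibroblast labels below, had the fibroblast gene Pdgfra at 290 to 589 CPM. nmSC lay within that range, at 303 CPM. Other fibroblast genes did not set all 5 apart: Pdgfrb was at 15.7 CPM in capFb and 17.8 in cTEC. Dcn was at 2026 CPM in TMC4 and 5588 in the stromal Thymocyte label. MEC had the mesothelial gene Msln at 3513 CPM and mTEC2 the medullary epithelial gene Aire at 468 CPM. The Myeloid label had the granulocyte genes S100a8 at 49371 CPM and Mpo at 1871 CPM, and of 14 macrophage and monocyte genes 5 were highest there among the stromal labels: Lyz2 at 4808 CPM, Tyrobp at 847, Fcer1g at 487, Slc40a1 at 52.2 and Cd68 at 47.7. The macrophage genes Csf1r and Cd163 were at 17.1 and 0.166 CPM there.

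**Figure D1:**
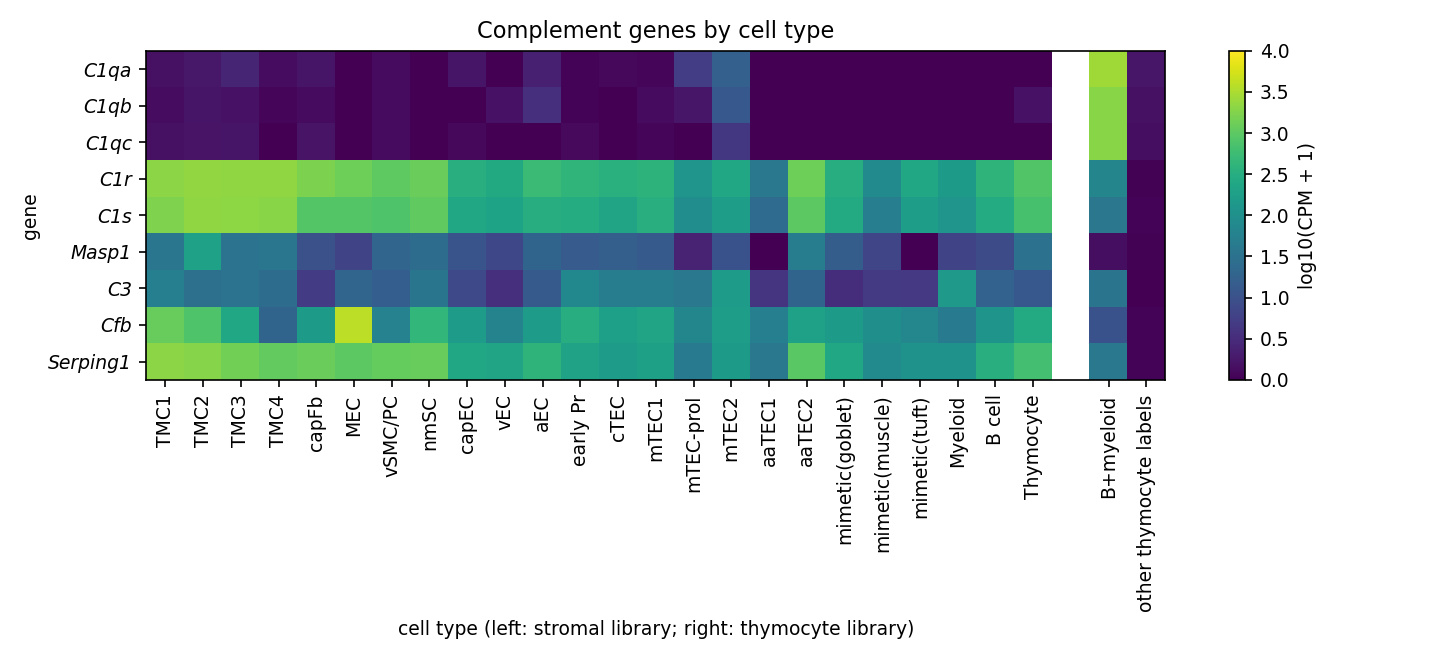
Levels of the 9 genes as log10(CPM + 1) by label, in the stromal library (left) and, after the gap, in the B+myeloid label and in all other labels of the thymocyte library. The C1q rows are brightest at B+myeloid, C1r, C1s and Serping1 are bright across the fibroblast labels, and Cfb is brightest in MEC.

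C1q was almost confined to 1 label of the thymocyte library. The 170 cells labelled B+myeloid held 6316 of the UMIs of C1qa, 2642 CPM, and the other 8376 cells held 48, 0.774 CPM. C1qb had 4647 UMIs there, 1944 CPM, and 33 elsewhere, 0.532 CPM. C1qc had 4598 UMIs there, 1924 CPM, and 24 elsewhere, 0.387 CPM. The chains encode subunits of 1 molecule, and the B+myeloid label held 99.2%, 99.3% and 99.5% of their UMIs in turn. The level in B+myeloid was 3416-fold that of all other cells for C1qa (2571 to 4537), 3655-fold for C1qb (2596 to 5148) and 4973-fold for C1qc (3330 to 7427). The 105 C1q UMIs outside the label were spread over 104 cells, with at most 2 in a cell. Under the thymocyte label DP, whose cells should lack C1q, 0.577% of 5202 cells had a C1qa UMI at a median of 3205.5 UMIs per cell, against 43.5% in B+myeloid at a median of 11506.

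The B+myeloid label joins cells of unlike kinds, and the deposited clusters divide it into cluster 8 with 98 cells and cluster 11 with 72 cells. Of the 14 macrophage and monocyte genes, 12 were higher in cluster 11 than in cluster 8, among them Cd163 at 1019 CPM, Cd68 at 1325 and Mertk at 329. Lyz2 was lower in cluster 11, 290 CPM against 2180, and Marco was at 0 in both. The B cell gene Cd79a was at 0 in cluster 11. Cluster 8 had the plasma cell gene Jchain at 6163 CPM, the B cell gene Cd79a at 389 CPM and the dendritic cell gene Flt3 at 158 CPM, with Cd163 at 0, and the granulocyte genes S100a8 at 3522 and S100a9 at 6023 CPM were in 9.18% of its cells each. C1q was among the genes that could form these clusters, so its split between them is a description. In cluster 11, 71 of 72 cells had a C1q UMI and 66 had all 3 chains, with a median of 82.5 C1q UMIs per cell and up to 896. In cluster 8, 6 of 98 cells had any, and a single cell held 447 of the 488 UMIs. Cluster 8 was the deeper, with a median of 14593 UMIs per cell against 5568. After each cell was thinned to 1000 UMIs, C1qa remained in 94.0% of 67 cells of cluster 11 (85.4 to 98.4) and in 1.05% of 95 cells of cluster 8 (0.0266 to 5.73).

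The share of each chain was read in single cells. Among the 60 B+myeloid cells with at least 20 C1q UMIs, C1qa took a median of 40.6% of the C1q UMIs (25.5 to 61.1, the lowest and highest cell). C1qb took a median of 30.0% (17.4 to 40.5) and C1qc 30.2% (0 to 41.4). In all other thymocyte-library cells together the shares were 45.7%, 31.4% and 22.9%, from 105 UMIs.

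**Figure D2:**
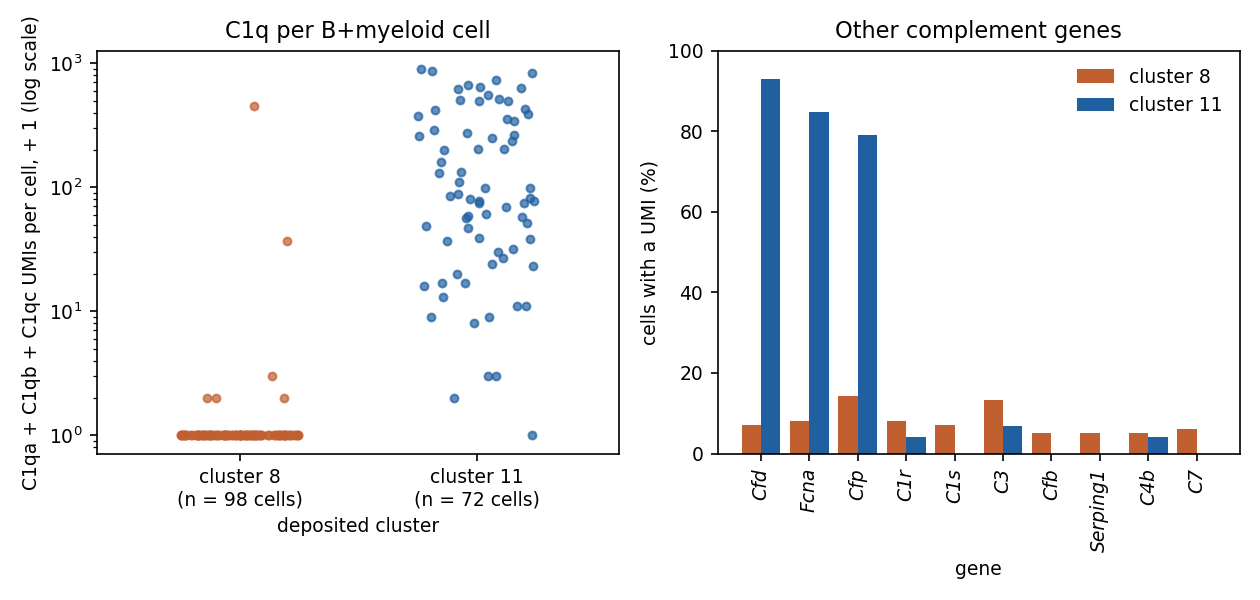
Left: C1q UMIs (3 chains summed, plus 1, log scale) in each B+myeloid cell, 1 point per cell, in deposited clusters 8 and 11. Right: percent of cells of each cluster with a UMI of other complement genes. Cluster 11 cells hold up to 896 C1q UMIs and carry Cfd, Fcna and Cfp, and C1s, Cfb, Serping1 and C7 are at 0 there.

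The Myeloid label of the stroma had no C1q UMI. Its 505 cells had 0 C1q UMIs of 6036710, 0 CPM (0 to 0.611), at a median of 9510 UMIs per cell. All other stromal cells together had 194 C1q UMIs, 1.54 CPM (1.34 to 1.78), in 141 of 12721 cells. That was 3.11-fold the level of 3 UMIs in the Myeloid label, 0.497 CPM, which is a set value and not a limit. When cells with a UMI of any of 6 myeloid marker genes were left out of the other labels, that ratio was 2.06. By label the highest level was in mTEC2, with 27 UMIs in 6 of 61 cells, 30.8 CPM (20.3 to 44.9), of which 14 were in a single cell that also had 2 Tyrobp UMIs and 1 of Cd68. Of the 14 macrophage and monocyte genes, 2 were highest in mTEC2 among the stromal labels: Adgre1 at 91.4 CPM and Cd163 at 1.14. Lyz2 was at 241 CPM there, Aif1 at 57.1 and Tyrobp at 34.3. Csf1r was at 3.43, Mertk and Mrc1 at 2.29 each and Timd4 at 0. The part of macrophage RNA in the C1q of mTEC2 was not tested. The fibroblast labels together had 137 C1q UMIs in 110 of 8216 cells, 1.73 CPM. In the thymocyte library the cells outside B+myeloid had a summed C1q level of 1.69 CPM, and the part of free RNA in either value was not tested.

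C1r and C1s, the proteases that C1q activates, were high in all fibroblast labels and differed little among TMC1 to TMC4. C1r was at 2286 CPM in TMC2 (2268 to 2304.5), 2198 in TMC3, 2182 in TMC4, 2008 in TMC1 and 1602 in capFb. C1s was at 2183 CPM in TMC2, 2056 in TMC3, 1924 in TMC4 and 1682 in TMC1, and at 850.3 in capFb. TMC2 led TMC3 by a ratio of 1.04 for C1r (1.02 to 1.06) and of 1.06 for C1s, and the counting intervals of TMC3 and TMC4 overlapped for C1r. C1r was present in nearly every cell, with a UMI in 99.9% of TMC2 cells at a median of 8269.5 UMIs, against 28.7% of Myeloid cells at 9510. The fibroblast labels held 60.0% of the library's UMIs, 88.3% of those of C1r and 89.6% of those of C1s. The genes are adjacent on chromosome 4, and their ratio was not constant: C1r UMIs per C1s UMI were 1.05 in TMC2 (1.04 to 1.06), 1.19 in TMC1 and 1.88 in capFb (1.85 to 1.92). A noncoding gene overlaps C1r, and whether the counting used strand is not given in the sources used here.

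Serping1, the inhibitor of these proteases, was highest in TMC1 at 2014 CPM (1990 to 2037) and TMC2 at 1861, a ratio of 1.08. TMC3 had 1387 CPM, capFb 1230.4, vSMC/PC 1114 and TMC4 1111, the last pair with overlapping intervals. vSMC/PC, which had the mural genes Acta2 at 1266 CPM and Myh11 at 998, had a Serping1 UMI in 96.7% of its cells. The fibroblast labels held 89.4% of Serping1 UMIs.

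Masp1 was low in most labels and higher in TMC2. TMC2 had 5091 of the 7116 Masp1 UMIs, 191 CPM (186 to 196). The other fibroblast labels had 35.9 CPM in TMC4, 35.6 in TMC1, 32.0 in TMC3 and 8.72 in capFb. A Masp1 UMI was present in 55.9% of TMC2 cells and 22.6% of TMC4 cells at similar median depths, 8269.5 and 8717, and in 4.75% of Myeloid cells. The next highest label was aaTEC2 at 47.6 CPM, from 26 UMIs in 29 cells, a ratio of 4.01 (2.73 to 5.89). In 28 of those 29 cells more than 0.5% of UMIs came from 5 fibroblast genes (Pdgfra, Col1a1, Col3a1, Dcn and Lum), and the part of fibroblast RNA in the aaTEC2 value was not tested.

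Cfb differed most among the fibroblast labels. TMC1 had 1196 CPM (1178 to 1214), TMC2 796, TMC3 237, capFb 149 and TMC4 18.4. TMC4, with C1r, C1s and Serping1 above 1000 CPM each, was thus the lowest of the 24 stromal labels for Cfb. Cfb, the protease of the alternative pathway, was highest in MEC at 3956 CPM (3788 to 4129), where all 48 cells had a UMI, at a median of 11141 UMIs per cell. TMC1 came next, a ratio of 3.31 (3.16 to 3.46). MEC has only 48 cells, and among labels of at least 50 cells TMC1 led TMC2 by 1.50. Outside these, nmSC had 448 CPM, the epithelial label early Pr 315, mTEC1 215 and cTEC 180.5.

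C3, on which all pathways converge, did not follow the fibroblast labels. It was highest in mTEC2 at 153 CPM (128 to 181) and in Myeloid at 140 CPM (131 to 150), a ratio of 1.10 (0.913 to 1.31) that was not resolved. When each cell was weighted equally, Myeloid led and the ratio was 0.715. When cells with at least 3 UMIs of 10 thymocyte genes were left out, the ratio was 0.954, within counting error of the main value. C3 was at 72.1 CPM in early Pr, 52.1 in TMC1, 46.3 in cTEC, 46.2 in mTEC1, 28.6 in TMC2 and 4.08 in capFb. A C3 UMI was present in 61.8% of Myeloid cells at a median of 9510 UMIs and in 2.72% of capFb cells at 11378. The fibroblast labels held 45.2% of C3 UMIs, under their 60.0% of all UMIs, and the epithelial labels held 33.5%.

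Of the 9 genes, 6 had at least 20 UMIs in their highest stromal label. In 2 of these 6, Masp1 in TMC2 and Cfb in MEC, that label was at least 3-fold above the next, against 10.0% of all 13149 genes with as many UMIs. After thinning to 1000 UMIs the lead of Masp1 was 2.76, and by initial clusters (1.04) or among labels of at least 50 cells (1.50, in TMC1) Cfb had no 3-fold lead, so the count was 1 in each case.

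Fibroblast transcripts were present in the other stromal labels too: the median of the 5 fibroblast genes ran from 0.746% of the level in the fibroblast labels (aaTEC1) through 37.3% (Thymocyte) and 58.4% (nmSC) to 72.2% (aaTEC2). The genes were therefore also read in cells with at most 0.5% of UMIs from these 5 genes. That kept 903 of 1018 early Pr cells and 450 of 505 Myeloid cells. In early Pr the median of the 5 genes was 11.5% of the fibroblast level over all cells and 1.12% in the cells kept, a value that the filter itself lowers. C7, which the filter did not use and which is high in the fibroblast labels, was at 2.00% in the cells kept. C1r went from 20.1% to 12.0% of the fibroblast level, C1s from 16.8% to 8.47% and Serping1 from 12.5% to 3.09%, whereas Cfb stayed at 54.5% and C3 at 262%. In cTEC the kept cells had C1r at 10.2%, Cfb at 32.1% and C3 at 189%, with C7 at 1.26%. In mTEC1 they had C1r at 12.8%, C1s at 13.0% and Cfb at 28.4%, with C7 at 2.33%. Epcam, an epithelial gene, was at 1207 CPM in early Pr. Some of the genes also stood above C7 in labels of other kinds: C1r was at 5.41% in vEC with C7 at 1.57%, and at 5.63% in mTEC-prol with C7 at 0.519%, and Serping1 was at 10.9% in aEC with C7 at 1.93%.

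In the other labels the change differed by gene. In Myeloid C1r went from 7.17% to 1.73% of the fibroblast level, beside C7 at 1.59%, and C3 stayed at 527%. In the B cell label C1r went from 19.6% to 2.77%, and in the Thymocyte label from 40.2% to 5.75%, beside C7 at 1.81% and 3.30%. vSMC/PC kept Serping1 at 66.4%, C1r at 32.8% and C1s at 29.1%, with C7 at 18.7%, while its Cfb went from 10.7% to 0.811%. In mTEC2 Cfb went from 31.0% to 3.11% and C3 stayed at 621%. The share of each value that came from free or co-captured RNA was not tested.

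**Figure D3:**
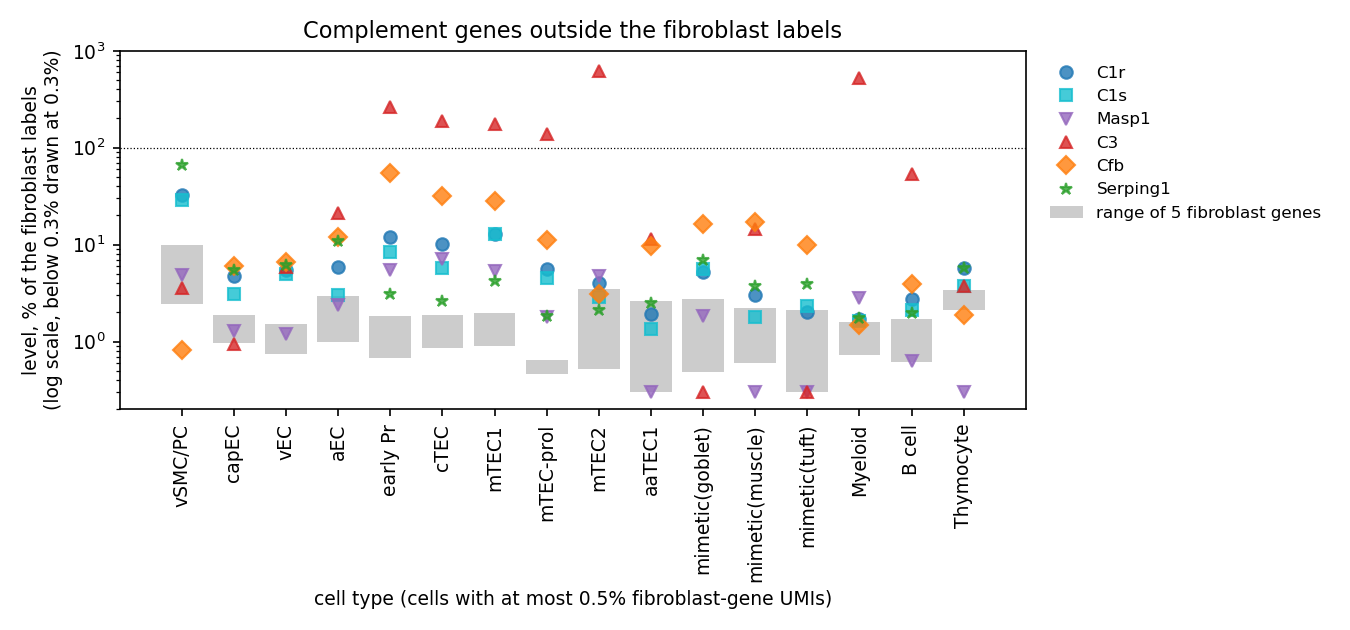
Level of 6 genes in labels outside the fibroblast group, as percent of the level in the fibroblast labels (log scale), in cells with at most 0.5% fibroblast-gene UMIs. Grey bars span the 5 fibroblast genes in the same cells, which the filter itself lowers, and the dotted line is the fibroblast level. Cfb stands above the grey bars in every label drawn but Myeloid, Thymocyte, mTEC2 and vSMC/PC. C3 reaches 621% in mTEC2, and Serping1 reaches 66.4% in vSMC/PC.

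Within a fibroblast label some genes were even and others patchy. After thinning to 4000 UMIs, a C1r UMI was present in 98.3% of 1335 TMC1 cells and 99.9% of 2986 TMC2 cells, and the tenth of cells with the most held 21.9% and 20.1% of C1r UMIs. Cfb was present in 63.2% of TMC1 cells and 56.4% of TMC2 cells, and the same share of cells held 55.4% and 58.0% of its UMIs. The median TMC1 cell had 1 Cfb UMI and the highest had 87. Cfb was present in 29.7% of capFb cells, 22.1% of TMC3 cells and 4.39% of TMC4 cells, and Masp1 in 40.5% of TMC2 cells.

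The genes went together from cell to cell in TMC1, more so than Masp1 did. Pearson's r across the 1335 TMC1 cells, which share 1 library and were thinned to 1 depth, was 0.56 for C1r with C1s, 0.57 for Serping1 with C1r, and 0.57 for Serping1 with C1s. For Cfb it was 0.45 with Serping1, 0.40 with C1s, 0.38 with C1r and 0.28 with C3. Masp1 stayed at 0.11 or below with each of the others. The fibroblast gene Dcn, not a complement gene, had r of 0.47 with C1r, 0.47 with C1s and 0.48 with Serping1 in the same cells. In TMC2 r was 0.38 for C1r with C1s, 0.37 for Serping1 with C1r, 0.29 for Serping1 with C1s, 0.32 for Cfb with Serping1 and 0.28 for Cfb with C3, and Masp1 stayed at 0.04 or below. These r values across cells are descriptions and carry no p.

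Other complement genes were among those closest to Cfb across cells of TMC1 and TMC2. Of the 10 genes with the highest r with Cfb in TMC1, among 8352 compared of which 19 were complement genes, 8 were complement genes: Serping1, C4a, C1s, C4b, C1r, C7, C2 and C3. In TMC2 7 of 10 were, in capFb 3 of 10, led by Sfrp1 at 0.32, and in TMC3 0 of 10. C3 had the same counts as Cfb in TMC1 and TMC2. For C1r, C1s and Serping1 the count was 6 of 10 each in TMC1, and 3, 3 and 1 in TMC4. In TMC4 the gene closest to each of these was B2m, not a complement gene, at 0.54, 0.43 and 0.49 in turn. The lead for Masp1 was another set: in TMC2 Sfrp1 at 0.31, a secreted Wnt inhibitor, Cxcl13 at 0.23, a chemokine, and Dpep1 at 0.23, with 0 complement genes among 10. By RefSeq, Cfb lies next to C2 on chromosome 20.

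**Figure D4:**
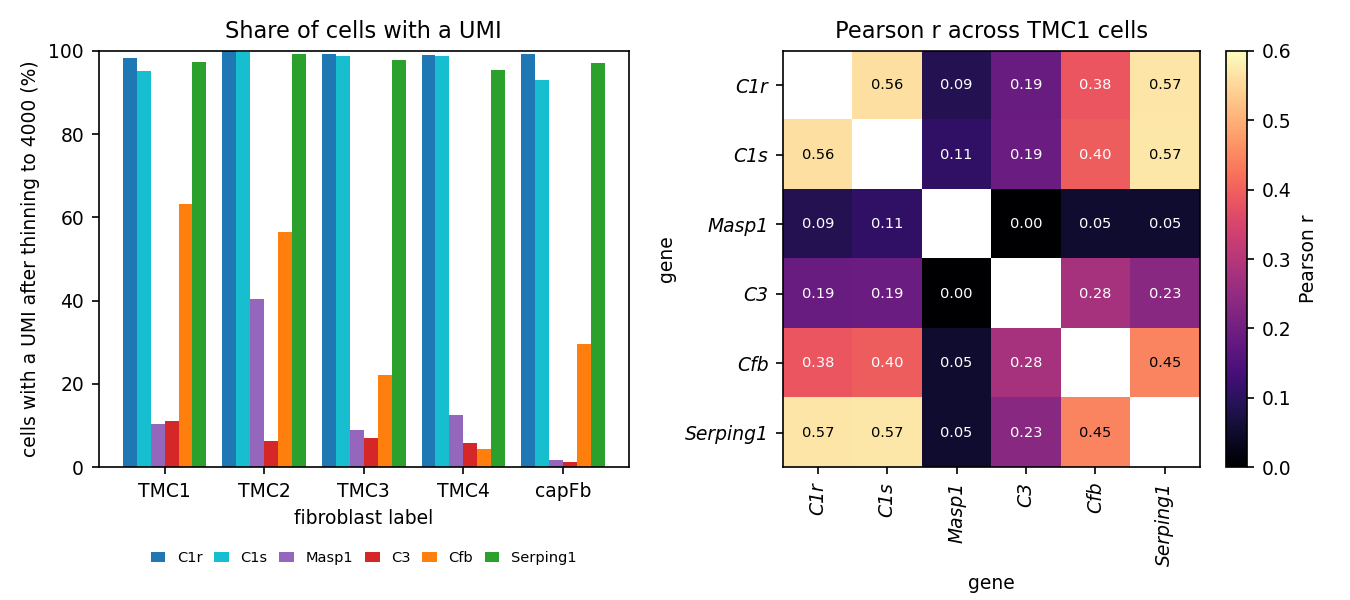
Left: percent of cells with a UMI after thinning to 4000 UMIs, for 6 genes in the 5 fibroblast labels. Right: Pearson's r between these genes across TMC1 cells. C1r, C1s and Serping1 are in nearly all cells of each label, Cfb is in 4.39% of TMC4 cells, and the Masp1 row is dark.

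Across the 18 stromal labels of at least 50 cells, log2(CPM + 1) of C1r was most like C1s (r = 0.99), Col6a2 (0.99), a collagen VI chain, and Cpq (0.98), among 13996 genes. C1s was most like C1r, C4a and Col6a2 (0.98 each for the last pair), and Serping1 like Col6a1, Pcolce and Col6a3 (0.98 each). The labels share 1 library, and fibroblast labels weigh heavily in these values. Masp1 was most like Bhlhe22, Slit2 and Abca8a (0.90 each) and Cfb like Smoc2 (0.90), Col4a5 (0.87) and Aox3 (0.86). C3 was most like Pigb (0.84), Sntb1 (0.83) and Klf5 (0.81). The C1q chains had fewer than 100 UMIs each in the stroma and were given no such value.

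In the thymocyte library 8 of the 9 genes had at least 20 UMIs in their highest label. For 7 of these 8 the B+myeloid label was at least 3-fold above every other, against 11.8% of 10010 genes, and over any label the background was 13.3%. Of the 8, only C1qa had 20 UMIs under another label, with 30 in DP. Passing the filter through B+myeloid favours a lead there, so the count is a description. C3 was among the 7 at a ratio of 3.17, with the next label at 0 set to 3 UMIs. That ratio rests on a set count and has no counting interval. Serping1 was at 12.3 (1.72 to 88.4), against 1 UMI in Treg. The count was 6 with mitochondrial, ribosomal and haemoglobin genes left out of the totals, and 8 with cells weighted equally. The stromal genes were low there. C1r had 155 UMIs in B+myeloid, 64.8 CPM, and 4 in all other cells. C1s had 91 and 5, Serping1 93 and 6, and Cfb 22 and 6. C3 had 79 and 0. Its level, 33.0 CPM, was 684-fold that of the other cells with 3 UMIs set there, a set count that carries no counting interval. Masp1 had 1 and 3.

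These UMIs were not spread over the label. In cluster 8, 4 cells with at least 5 UMIs of the fibroblast genes, 2460 such UMIs in all, held 142 of the 155 C1r UMIs (91.6%), 96.7% of those of C1s and 90.3% of those of Serping1, but 10.1% of those of C3 and 27.3% of those of Cfb. In the 166 other cells C1r was at 5.61 CPM (2.99 to 9.59), C1s at 1.29, Serping1 at 3.88 and C3 at 30.6 (23.9 to 38.6). Without the 4 cells the 3 C1q chains kept all their UMIs. The 72 cells of cluster 11, which held most C1q, had 4 UMIs of C1r, 12 of C3 and none of C1s, Cfb or Serping1.

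Other complement genes were read from a list of 46 names, of which 45 were in the files and Cd59 was not. In the stroma 28 of the 45 had at least 20 UMIs in their highest label, and in 9 of these that label was at least 3-fold above the next, against 10.0% of all 13149 genes. Of these 9, 4 led in Myeloid: Fcnb, a ficolin of the lectin pathway, at 781 CPM, the C5a receptor gene C5ar1 at 119, and the complement receptor integrins Itgam at 85.0 and Itgax at 5.96. C4a, a C4 gene cleaved by C1s, led in MEC at 8188 CPM, 4.03-fold above TMC1, in the label where Cfb led. Mbl2 (45.7 CPM) and the receptor gene Cr2 (270) led in mTEC2, the regulator genes Vtn in vSMC/PC (635) and Susd4 in vEC (38.2). Reads of C4a and its near-identical copy C4b could have been split between them by the authors' counting.

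Of the 19 other genes with at least 20 UMIs and a smaller lead, 11 were highest in a fibroblast label. Those named next were chosen after their values were seen. C7, a terminal pathway gene, was at 10851 CPM in TMC2 and 9284 in TMC1, and C4b at 3027 in TMC1. C2 and the regulator gene Clu were highest in TMC4, at 959 and 3793 CPM, where Cfb was at 18.4. C5, C8a, C8b and C9 had 35, 1, 0 and 10 UMIs in the whole stroma.

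**Figure D5:**
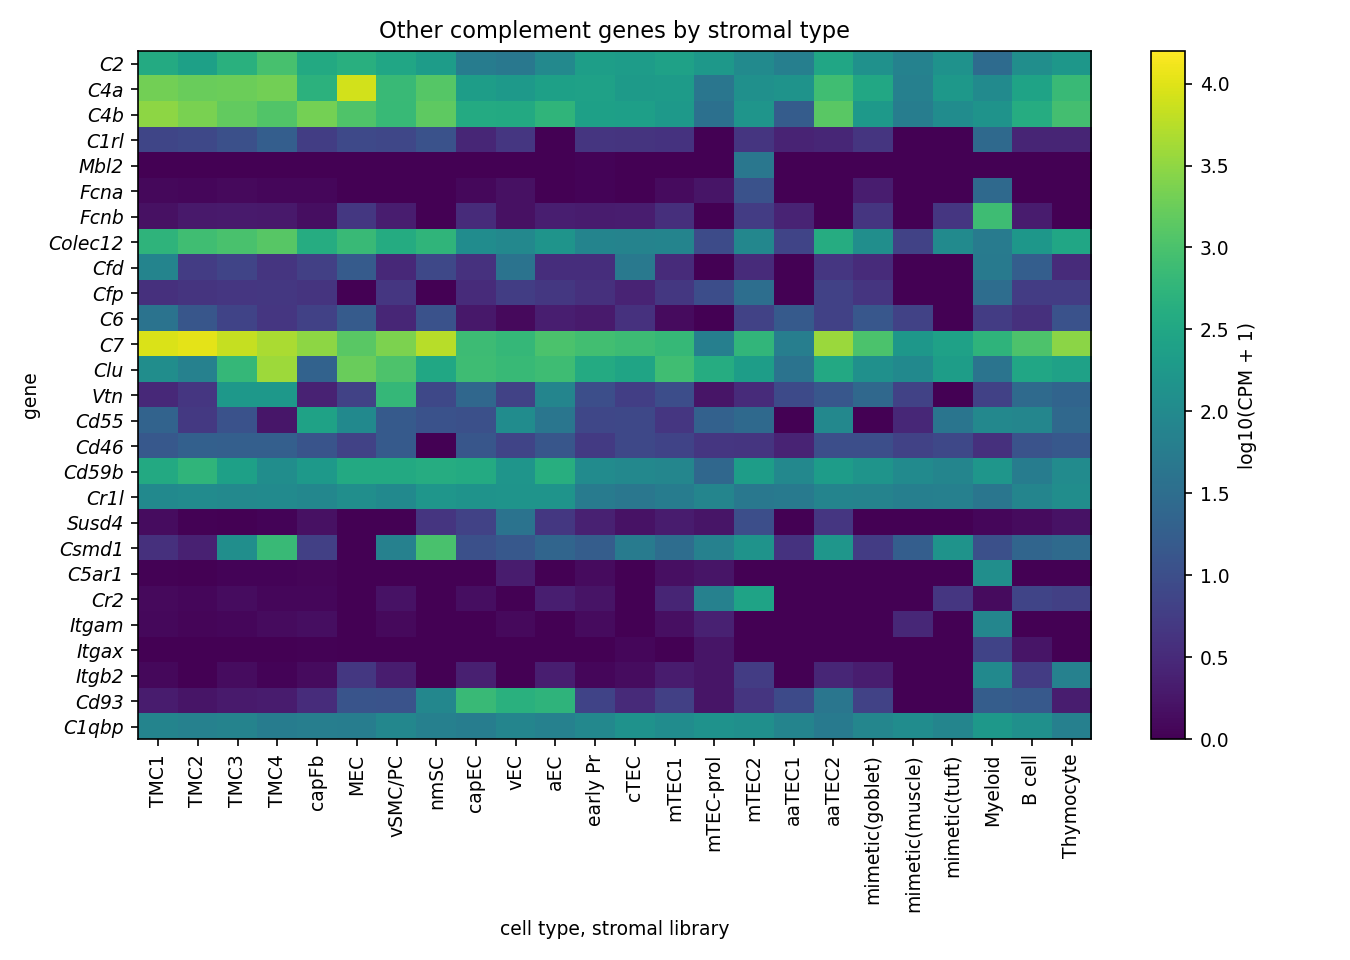
Levels of 27 of the 28 other complement genes with at least 20 UMIs in their highest label, drawn as log10(CPM + 1) in the 24 stromal labels. C7, C4a and C4b are bright across the fibroblast labels, Fcnb, C5ar1, Itgam and Itgb2 in Myeloid, and Mbl2 in mTEC2.

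In the thymocyte library 27 of the 45 had at least 20 UMIs in their highest label. Of these 27, 20 were at least 3-fold higher in B+myeloid than in every other label, against 11.8% of all 10010 genes. Some of the 20 passed the filter only through B+myeloid, which favours a lead there. C7 had 654 of 664 UMIs there, C4b 126 of 129 and Clu 49 of 50. C7 had all of its B+myeloid UMIs and C4a all of its own in cluster 8, in 6.12% of its cells each. C4b and Clu had UMIs in 5.10% and 8.16% of cluster 8 cells. The 5 fibroblast genes were in 4.08% of cluster 8 cells each, and the part of fibroblast RNA in these values was not tested. The C1q-rich cluster 11 also had the alternative pathway genes Cfd at 2440 CPM, against 13.0 in cluster 8, and Cfp (properdin) at 775, against 20.4. It had the ficolin gene Fcna at 1444 CPM, against 11.1. The receptor genes C5ar2 and C3ar1 were at 55.7 and 22.0 against 0 and 1.85. Fcnb, the ficolin of the stromal Myeloid label, went the other way, 1.29 CPM in cluster 11 and 163 in cluster 8, as did Cr2, 1.29 against 97.7. Apart from Fcnb and Cr2, these genes were chosen after their values were seen.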

How the data were processed

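The authors deposited raw UMI counts for each barcode and gene. Cell Ranger 8.0.0, Seurat 5.3.0 and the build mRatBN7.2 are named for them, per the submitters' processing notes. The percent of mitochondrial UMIs that the authors deposited for each cell was not used to leave out cells. Cell labels were taken as deposited, the projected label where given and the initial cluster otherwise. Genes, labels and lists were chosen with earlier results of these data known. UMIs were summed per label (at least 20 cells) and divided by the label's total. Levels and shares have exact Poisson and Clopper-Pearson intervals, and ratios log-normal ones, at 95%, for counting error only. No ratio was given under 20 UMIs in the highest label. A next label at 0 was set to 3 UMIs, and such ratios are given without an interval. Named genes were the 9, the other complement genes with a 3-fold lead, and the 3 most correlated genes of each. Where cells were thinned to 1000 UMIs (random seed 7), those with fewer were dropped, 83 in the stroma and 51 in the thymocyte library. No doublet caller was run, and whether doublets were removed before deposit is not given in the sources used here. The routines were tested on simulated counts. Tools were pandas 2.3.3, NumPy 2.4.6 and SciPy 1.17.1 under Python 3.11.15, with figures by matplotlib 3.10.9. Promoters came from RefSeq (GRCr8), and 29433 of 34034 feature names matched a RefSeq symbol. The values of 1 complement gene of the list are not reported here. The section's tables hold no counts by gene and were not used.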

Additional observations from a re-analysis of the deposited data

Results flagged for a closer look

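Barcodes without an annotation lay outside every comparison and carried the genes too. In the stromal library 2934 such barcodes with 8663291 UMIs had C1r at 436 CPM, C1s at 379, Serping1 at 279.8, Cfb at 118, C3 at 25.7 and Masp1 at 23.2, each below its level in annotated cells (1407, 1183, 1065, 413, 36.8 and 54.1 in the same order). C1q went the other way. C1qa was at 1.27 CPM (0.634 to 2.27), C1qb at 2.65 (1.68 to 3.98) and C1qc at 1.62 (0.883 to 2.71), against 0.676, 0.425 and 0.372 in annotated cells. The 48 C1q UMIs lay in 31 barcodes, with at most 7 in a barcode. In the thymocyte library 28 barcodes without annotation had C1qa at 145 CPM from 4 UMIs (39.5 to 372), against 98.8 in annotated cells. The other chains were not higher there: C1qb was at 72.6 CPM from 2 UMIs, against 72.6, and C1qc at 36.3 from 1 UMI, against 71.7.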

How the results depend on the processing

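Of 114 values recomputed under the alternatives, 98 stayed within counting error (or, for counts, near the reported count), 16 moved further, and 0 called values turned in direction. With cells weighted equally the ratio of the highest to the next stromal label was 1.04 for C1s, 0.715 for C3 (Myeloid above mTEC2), 3.51 for Cfb and 1.12 for Serping1. Thinned to 1000 UMIs it was 1.02 for C1r, 1.03 for C1s, 3.90 for Cfb and 1.11 for Serping1, and the count of genes with a 3-fold lead was 1 in the stroma and 3 in the thymocyte library, out of 3 with enough UMIs left. By the initial clusters C3 was 2.03-fold higher in Myeloid than in TEC-b, Cfb 1.04-fold higher in TMC1 than in TEC-a, and the stromal count was 1. C3 in B+myeloid was then 23.8-fold the level in DP-P2 with 3 UMIs set there. With labels of at least 50 cells, added after seeing the data, Cfb led in TMC1 at 1.50 and the count was 1. Leaving out cells with over 0.5% of UMIs from fibroblast genes was also added after seeing the data. Thinning left too few UMIs for C3 in the stroma, for C1r, C1s, C3, Cfb and Serping1 in the thymocyte library, and for the C1q ratio of the stroma. With 1 library per group the spread between animals is unknown, and no replicate could be left out. No paired analysis was possible because there is a single sample in each group.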

Other observations

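In the stromal Thymocyte label, 411 cells with a median of 2648 UMIs, C1r was at 832 CPM and Serping1 at 646, but only 31.4% and 29.9% of the cells had a UMI. The tenth of cells with the most held 81.4% of the C1r UMIs and 81.5% of those of Serping1. In TMC2 that share was 22.6% for C1r. Cfb in the same label was at 282 CPM, and the tenth of cells with the most held all of its UMIs.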
